A study of Mus musculus with 4 samples.

Results

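Control neural stem cells from newborn mouse cortex were compared before and 3 days after withdrawal of EGF and bFGF, the growth factors that keep such cultures dividing. Deposited transcript counts were summed per gene and scaled to library size as CPM, and the 12821 of 17621 genes that averaged 1 CPM or more in the 2 control libraries were kept, out of 4 libraries in the series. Both control libraries came from primary cells labelled Seh1 f/f, plated on poly-L-ornithine and laminin. The day 0 library was taken in growth medium with EGF and bFGF, and the day 3 library (D3) in differentiation medium from which both were left out. The iKO libraries of both days carry the same floxed Seh1 alleles plus a transgene written as cmv-cre-ert, so all 4 libraries share the floxed gene. CMV is a promoter used for broad expression. The sources used here do not say whether cells received an inducer, whether animals were pooled or whether libraries came from separate cultures. Rounded counts summed to 21040595 at day 0 and 19745933 at day 3. Each group is 1 library, so no test between days is possible and no p-value is given. Every interval in brackets is a 95% interval of counting error only, which does not cover the spread between cultures.

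EGF and FGF bind receptor tyrosine kinases and signal through ERK to the immediate early genes, the sprouty and dual-specificity phosphatase feedback genes and the cyclins of G1. Cyclin-dependent kinases then relieve the RB family's block on E2F, which opens the genes of DNA synthesis, while mitotic genes are held down in resting cells by the DREAM complex through CHR elements. Neural stem cells of the cortex that stop dividing can become neurons, astrocytes or oligodendrocytes.

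Genes are called higher or lower from a 2-fold difference upwards, measured as the log2 ratio of CPM + 1. Folds in the text are ratios of CPM themselves. At day 3, 1894 genes were higher, 14.8% of those compared, and 1955 were lower, 15.2%. These shares are the background for every count below, and the median over all compared genes was -0.02. At 4-fold or more the counts were 457 and 555, and at 16-fold or more 26 and 90, so the steepest differences were mostly losses. Among the fifth of genes with the lowest mean level 618 were higher and 314 lower, whereas in the fifth with the highest level 314 were higher and 446 lower. Markers of neural stem cells were present in the day 0 library. Sox2, a transcription factor of neural progenitors, was at 178 FPKM (the deposited unit that also corrects for transcript length), Fabp7, a lipid-binding protein of radial glia, at 1633 FPKM and Nes, the intermediate filament nestin, at 132 FPKM. Olig2, a transcription factor of ventral progenitors and the oligodendrocyte lineage, was at 612 FPKM at day 0. In bulk samples, fewer cells of a type and less RNA per cell cannot be told apart.

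**Figure D1:**
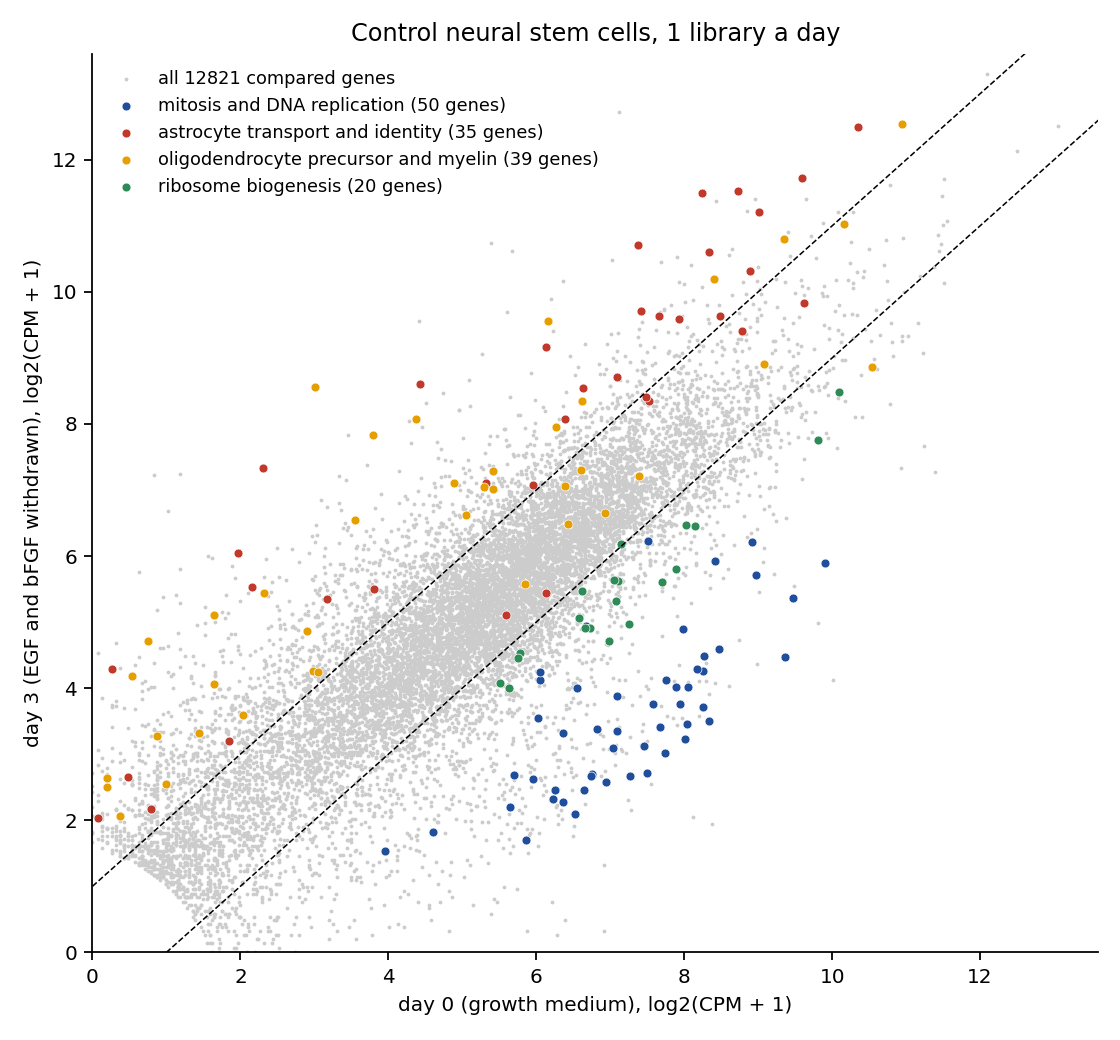
Each point is 1 of 12821 compared genes, with log2(CPM + 1) of the day 0 control library on the x axis and of the day 3 control library on the y axis, and dashed lines mark 2-fold. The 50 mitosis and replication genes all lie below the lower dashed line, and most astrocyte and oligodendrocyte genes lie above the upper one.

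The receptors of the withdrawn factors did not go down. All 7 compared receptors of the EGF and FGF families were above 0 at day 3, 2 of them by 2-fold or more, with a median log2 ratio of 0.71. Egfr, the EGF receptor, read 266 CPM in the day 0 library against 435 CPM in the day 3 library, 1.64-fold higher (1.58 to 1.70). Fgfr1, a main FGF receptor of neural progenitors, was at 250 CPM and 405 CPM, 1.62-fold higher (1.56 to 1.68). Erbb2, a co-receptor of the EGF family, read 17.7 CPM and 24.7 CPM, Fgfrl1, an FGF receptor that lacks a kinase, 59.7 CPM and 97.2 CPM, and Fgfr3 183 CPM and 326 CPM. All of these stayed under 2-fold. Fgfr2 was at 28.2 CPM and 88.6 CPM, 3.15-fold higher (2.86 to 3.46). Erbb4, a receptor for neuregulins (gene ID 13869, chromosome 1, 68031884 to 69108576, GRCm38), stood apart at 9.94 CPM and 227 CPM, 22.9-fold higher (19.9 to 26.5). Fgfr4 was under the minimum level and Erbb3 likewise. Among 10 compared ligands 2 were higher and 2 lower. Hbegf, an EGF family ligand, was at 72.0 CPM and 27.2 CPM, 2.65-fold lower (2.40 to 2.92), and Nrg1, a neuregulin, was 2.21-fold lower (1.88 to 2.60). Fgf11 and Fgf12, which are intracellular members of the FGF family, were 4.36-fold (3.89 to 4.90) and 2.64-fold higher (2.37 to 2.96).

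Readouts of ERK signalling were lower, but unevenly. Among 11 compared immediate early genes 8 were lower, none was higher and the median was -1.83. Arc, an activity-regulated cytoskeletal protein, read 73.3 CPM in growth medium and 0.696 CPM after withdrawal, 105-fold lower (62.5 to 193). Egr1, a zinc finger factor induced by ERK (gene ID 13653, chromosome 18, 34861207 to 34864956), was at 265 CPM and 16.1 CPM, 16.5-fold lower (14.7 to 18.5). Jund was the only compared member above 0, at 126 CPM and 161 CPM. With a pseudocount of 5 CPM in place of 1 the list median was -0.98. Of 15 ERK feedback and ETS genes 5 were lower and 1 higher, with a median of -0.61. Spry1, a sprouty inhibitor of receptor signalling, was at 258 CPM and 51.5 CPM, 5.00-fold lower (4.68 to 5.35), and Dusp4, an ERK phosphatase, was 4.33-fold lower (3.73 to 5.06). In the same list Spry2 read 298 CPM and 206 CPM, and Etv5, an ETS factor downstream of FGF, 509 CPM and 340 CPM, both under 2-fold. Il17rd, a membrane antagonist of FGF signalling, was the member against the majority, at 21.8 CPM and 64.9 CPM, 2.97-fold higher (2.67 to 3.31).

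Targets of FOXO factors, which are active when growth factor signalling is low, had 5 of 12 members higher and 1 lower, with a median of 0.58. Sesn3, an inhibitor of mTORC1, was at 18.1 CPM and 116 CPM, 6.37-fold higher (5.70 to 7.13). Pik3ip1, an inhibitor of PI3 kinase, was 6.41-fold higher (5.56 to 7.42), Fbxo32, a ubiquitin ligase subunit, 5.70-fold higher (4.62 to 7.11), and Txnip, a restrainer of glucose uptake, 5.27-fold higher. Trib1, a pseudokinase, went the other way and was 3.94-fold lower (3.49 to 4.45). Irs2 at 69.6 CPM and 61.4 CPM and Cited2 at 19.9 CPM and 20.7 CPM were nearly level, so the list did not move as a block.

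**Figure D2:**
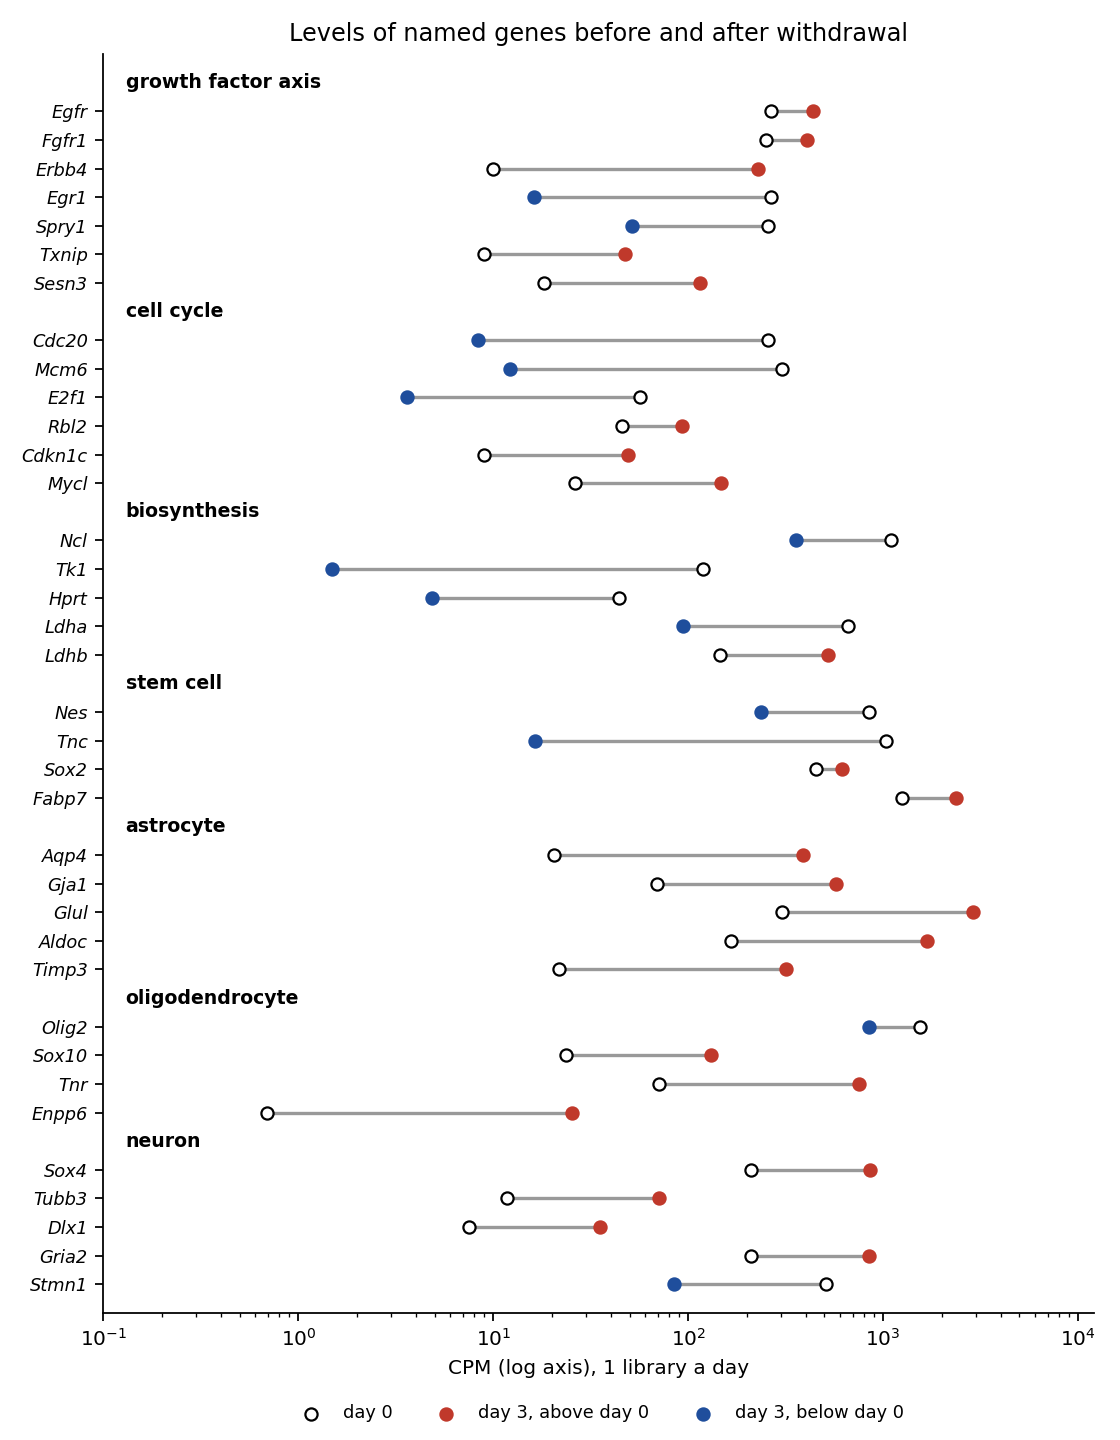
CPM on a log axis for named genes grouped by role, with open circles for the day 0 control library and filled circles for the day 3 control library. Cell cycle genes sit well to the left at day 3 except Rbl2, Cdkn1c and Mycl, and astrocyte genes sit to the right.

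The G1 machinery was lower at day 3, with 7 of 11 cyclins, kinases and Myc genes lower and 1 higher (median -1.67). Ccne2, a cyclin E that drives entry into S phase, was at 76.4 CPM and 3.68 CPM, 20.8-fold lower (16.4 to 26.6). Ccnd2, a D-type cyclin, was at 1755 CPM and 315 CPM, 5.58-fold lower (5.43 to 5.73), and Myc was 3.21-fold lower (3.04 to 3.40). Ccnd3 at 114 CPM and 71.0 CPM and Cdk4 at 651 CPM and 372 CPM stayed under 2-fold. Mycl, a relative of Myc (gene ID 16918, chromosome 4, 122995588 to 123002490), was instead at 26.2 CPM and 148 CPM.

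Of the 18 genes of the RB and E2F list 10 were lower and 1 higher, with a median of -1.57. The activators E2f1 and E2f2 were 15.6-fold (12.3 to 20.1) and 26.7-fold lower (19.2 to 38.1), and the S phase repressors E2f7 and E2f8 were 18.9-fold (14.4 to 25.4) and 20.6-fold lower (16.9 to 25.2). Mybl2 and Foxm1, factors of mitotic gene expression, were 22.3-fold (18.1 to 27.9) and 15.8-fold lower (14.2 to 17.5). E2f4, an E2F found in repressor complexes, read 78.8 CPM and 42.9 CPM, and the activator E2f3 77.4 CPM and 38.6 CPM, both under the threshold. Among the subunits of the DREAM core, Lin9 was at 36.3 CPM and 10.8 CPM and Lin54 at 64.3 CPM and 22.3 CPM, both lower. Lin37 at 19.1 CPM and 14 CPM and Lin52 at 19.6 CPM and 38.1 CPM were called neither way. Rbl2, which encodes the pocket protein p130 of DREAM, was at 45.6 CPM and 93.4 CPM, 2.05-fold higher (1.89 to 2.22), while Rbl1, which encodes p107, was at 85.6 CPM and 14.9 CPM, 5.76-fold lower (5.09 to 6.53). CDK inhibitors were mostly not higher in the differentiation medium. Of 7 members 4 were lower and 1 higher (median -1.20). Cdkn1b, which encodes p27, was level at 129 CPM and 136 CPM, Cdkn2b read 15.4 CPM and 13.8 CPM, and Cdkn2c, which encodes p18, was 4.36-fold lower (4.01 to 4.74). Cdkn2d and Cdkn2a were 3.93-fold (3.40 to 4.57) and 2.55-fold lower (2.03 to 3.22). Cdkn1c, which encodes p57 (gene ID 12577, chromosome 7, 143458339 to 143461059), was at 8.95 CPM and 49.2 CPM, 5.50-fold higher (4.69 to 6.48).

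All 25 mitosis genes, all 25 DNA replication genes and 16 of 18 DNA repair genes were lower, with medians of -4.09, -3.22 and -2.90. The mitosis list made up 0.586% of all counts at day 0 and 0.0390% at day 3. Cdc20, an activator of the anaphase-promoting complex (gene ID 107995, chromosome 4, 118432901 to 118437343), was at 256 CPM and 8.36 CPM, 30.6-fold lower (26.3 to 36.0). Plk1, a mitotic kinase, was 26.2-fold lower (22.8 to 30.4) and Cdca8, which encodes borealin of the passenger complex, 32.1-fold lower (26.6 to 39.1). After Bub3 the smallest ratio in the list was that of Cenpf, a kinetochore protein, 13.2-fold lower. Bub3, a checkpoint protein also present outside mitosis, was at 182 CPM and 73.9 CPM, 2.46-fold lower (2.32 to 2.62). In the replication list Mcm6, a subunit of the replicative helicase, was at 304 CPM and 12.1 CPM, whereas Tyms, thymidylate synthase, was 3.41-fold lower (3.12 to 3.75). In the repair list Exo1, an exonuclease of mismatch repair, was 24.8-fold lower (18.2 to 34.8), and the damage kinases Atm and Atr were under 2-fold, Atm at 73.4 CPM and 58.0 CPM and Atr at 42.1 CPM and 26.4 CPM.

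Reference promoters of these genes were searched for short letter strings on both strands, in the 250 bases before and 50 bases after each RefSeq start (GRCm38.p6). The CHR strings were TTTGAA and TTTAAA, the CCAAT box was CCAAT, and the E2F strings, added after the other values were known, were TTTGGCGC, TTTCGCGC, TTTCCCGC and TTTGCCGC. The windows below show the CHR string nearest upstream of the start for the 5 mitosis genes with the lowest day 3 to day 0 ratio that have one there, in capitals within 30 bases, written 5′ to 3′ on the gene's strand.
Ccnb1, chr13:100786511-100786540, minus strand: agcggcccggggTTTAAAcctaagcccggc
Cdc20, chr4:118437344-118437373, minus strand: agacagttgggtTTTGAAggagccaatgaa
Cdk1, chr10:69352913-69352942, minus strand: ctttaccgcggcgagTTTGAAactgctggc
Plk1, chr7:122159394-122159423, plus strand: gcgggtttgtatTTTAAAtccccgcggcca
Cenpa, chr5:30666856-30666885, plus strand: cacaaagttgggaTTTAAAagatgcggtgg
The capitals begin between positions -42 and -15 from the start in these 5 promoters. For DNA replication genes the corresponding windows show an E2F string in capitals, chosen by the same rule.
Mcm6, chr1:128359734-128359763, minus strand: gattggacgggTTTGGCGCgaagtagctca
Cdc6, chr11:98908002-98908031, plus strand: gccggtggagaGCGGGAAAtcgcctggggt
Mcm5, chr8:75109349-75109378, plus strand: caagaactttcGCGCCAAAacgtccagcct
Mcm7, chr5:138172030-138172059, minus strand: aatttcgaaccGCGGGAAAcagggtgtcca
Pola1, chrX:93632275-93632304, minus strand: gtcatcacaggGCGCCAAAtgcactcccgc
These 5 strings begin between positions -165 and -47 from the start.

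Mitosis promoters held both a CHR string and a CCAAT box more often than compared promoters in general. A promoter was given for 22 of 25 mitosis genes, of which 20 held a CHR string (90.9%), 20 a CCAAT box and 19 both (86.4%). Over the 10220 compared genes with a promoter, 22.1% held a CHR string, 43.6% a CCAAT box and 9.27% both. Over all 32851 promoters in the table the shares per promoter were 27.6%, 37.4% and 10.7%. The replication genes differed from the mitosis genes. Of 20 with a promoter 5 held a CHR string (25%) and 9 an E2F string (45.0%), against 4.76% with an E2F string over compared genes, while 1 of 22 mitosis genes held one (4.55%). Of 14 DNA repair genes none held a CHR string and 4 held an E2F string (28.6%). Across all compared genes the share with both CHR and CCAAT was 9.15% for genes called higher, 8.31% for those called neither way, 13.8% for those called lower and 36.8% for the 190 with a promoter that were lower by 8-fold or more. All mitosis genes but Bub3 were lower by 8-fold or more, so those with a promoter are counted in that last group too. A CHR string and a CCAAT box can share a letter at their edges, and a match describes letters, not binding.

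**Figure D3:**
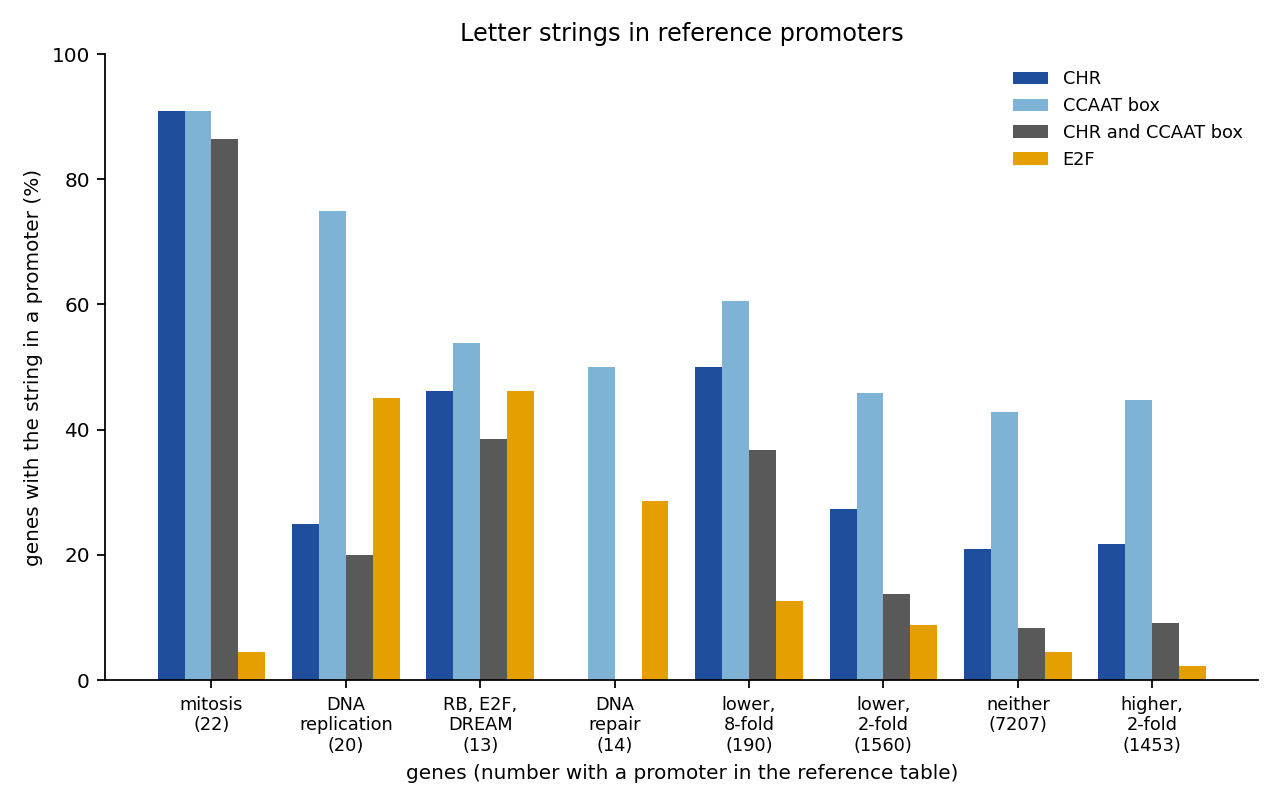
Bars give the percent of genes whose reference promoter holds a CHR string, a CCAAT box, both or an E2F string, for 4 gene lists and for compared genes sorted by their day 3 to day 0 ratio. Mitosis genes reach 90.9% for CHR, replication genes 45.0% for E2F, and genes called neither way reach 21.0% for CHR.

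Genes for building nucleotides, ribosomes, spliceosomes and nuclear envelopes were lower together with the cell cycle. Of 19 genes of serine, one-carbon and nucleotide synthesis 14 were lower and none higher (median -1.75). Tk1, thymidine kinase, was at 119 CPM and 1.49 CPM, 80.0-fold lower (55.9 to 119), and Shmt1, a cytosolic one-carbon enzyme, 26.9-fold lower (21.4 to 34.4). Psph, the last enzyme of serine synthesis, was the only member above 0, at 49.4 CPM and 71.0 CPM. Of 20 ribosome biogenesis genes 19 were lower (median -1.62), with Nop58, a box C/D particle protein, at 152 CPM and 30.5 CPM, 4.98-fold lower (4.57 to 5.44), and nucleolin, Ncl, at 1095 CPM and 358 CPM. All 79 compared ribosomal protein symbols were below 0 and 69 were lower. Their summed share was 4.07% of counts at day 0 and 1.79% at day 3. That family is picked by symbol and takes in Rps27l, a ribosomal protein relative that p53 also regulates, which was the lowest of them at 107 CPM and 20.2 CPM. Of 25 snRNP and Lsm genes 16 were lower and none higher (median -1.19), with Lsm2, an RNA-binding ring subunit, at 90.3 CPM and 10.5 CPM. Snrpn, the copy used in neurons, was level at 79.8 CPM and 91.0 CPM. Of 16 cytosolic chaperones 8 were lower and 1 higher (median -1.09). The mitochondrial chaperonin gene Hspd1, kept in that list, was 3.89-fold lower (3.74 to 4.05), and Hspa1a, the heat-inducible HSP70, was 4.04-fold higher (2.27 to 7.67) at 0.738 CPM and 2.98 CPM. ER chaperones did not follow, with 1 higher, Dnajb9, and 1 lower, Manf, of 16. Of 37 proteasome genes 8 were lower and of 91 respiratory chain genes 13 were, none of either being higher. The share of respiratory genes called lower was near the background, but 84 of the 91 were below 0 (median -0.63). Of the proteasome genes 35 were below 0 (median -0.79).

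The nuclear envelope and chromatin lists followed in part. Of 11 lamin and inner membrane genes 7 were lower (median -1.69). Lmnb1, lamin B1, was at 478 CPM and 80.7 CPM, 5.92-fold lower (5.62 to 6.24), and Lbr, the lamin B receptor, 5.82-fold lower (5.18 to 6.56). Sun1 at 61.4 CPM and 62.2 CPM and Lemd3 at 24.4 CPM and 28.8 CPM were level. Of 18 nucleoporins 13 were lower and all were below 0. Nup43 was 6.78-fold lower (5.50 to 8.42), and Seh1l, the floxed gene of the series, was among the least different at 40.3 CPM and 33.2 CPM, 1.21-fold lower (1.09 to 1.35). Uhrf1, which brings the maintenance methyltransferase to new DNA, was 25.2-fold lower (22.5 to 28.4), and Dnmt1, that methyltransferase, 4.63-fold lower (4.41 to 4.87). The paralogs of polycomb's catalytic subunit went opposite ways, with Ezh2 3.25-fold lower (3.03 to 3.49) and Ezh1 2.58-fold higher (2.11 to 3.18). Hdac11, the class IV deacetylase, and Tet2, a methylcytosine oxidase, were 4.79-fold (4.02 to 5.73) and 3.06-fold higher (2.76 to 3.39). Targets of p53 were lower too, 13 of 25 with a median of -1.28. Gtse1, a cell cycle gene, led them at 21.6-fold (18.4 to 25.5), Bax, a death effector, was at 222 CPM and 74.0 CPM, and Btg2, an antiproliferative gene, and Sesn1 were the 2 higher at 2.49-fold (2.32 to 2.68) and 2.33-fold (2.11 to 2.59).

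Stem cell genes did not go down as a class. Of 20 neural stem transcription factors 2 were higher and 3 lower, shares near the background (median 0.31). Sox2 was at 454 CPM and 618 CPM, 1.36-fold higher, Sox9, a factor of stem cells and astrocytes, at 178 CPM and 340 CPM, and Pax6, a factor of cortical radial glia, at 44.1 CPM and 60.8 CPM. Hmga1 and Hmga2, chromatin proteins of young dividing progenitors, were 7.01-fold (6.58 to 7.47) and 12.2-fold lower (8.07 to 19.4), and Hes1, a Notch effector, 2.33-fold lower (2.04 to 2.65). Tcf7l1 and Zbtb20 were 5.23-fold (4.71 to 5.81) and 4.26-fold higher (4.04 to 4.50). The proteins of stem cells and radial glia split, with 4 of 14 higher and 6 lower. Tnc, the matrix protein tenascin C (gene ID 21923, chromosome 4, 63959785 to 64047015), was at 1029 CPM and 16.4 CPM, 62.7-fold lower (56.2 to 70.1). Nes was 3.61-fold lower (3.50 to 3.73), Prom1, a membrane protein of stem cells, lower at 14 CPM and 3.18 CPM, and the RNA-binding proteins Igf2bp2 and Igf2bp3 14.5-fold (9.94 to 21.9) and 4.15-fold lower (3.75 to 4.61). Against these, Vcam1, an adhesion molecule, was 4.87-fold higher (4.50 to 5.26), and Fabp7 was at 1246 CPM and 2367 CPM, just under the threshold.

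Most astrocyte genes were higher. Of 17 genes for transport, junctions and ion handling 16 were higher and none lower, with a median of 2.15, and together they made up 0.514% of counts at day 0 and 2.41% at day 3. Aqp4, the water channel of astrocyte endfeet (gene ID 11829, chromosome 18, 15389394 to 15410982), was at 20.6 CPM and 388 CPM, 18.9-fold higher (17.1 to 20.9). Glul, glutamine synthetase, was at 302 CPM and 2897 CPM, 9.59-fold higher (9.35 to 9.85). The glutamate transporters Slc1a2 and Slc1a3 were 4.93-fold (4.75 to 5.11) and 4.43-fold higher (4.37 to 4.49), and the connexins Gja1 and Gjb6 8.25-fold (7.81 to 8.73) and 94.3-fold higher (36.5 to 348). The last ratio rests on few day 0 counts, at 0.197 CPM. Slc6a11, a GABA transporter, was 6.95-fold higher (6.79 to 7.11).

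Identity and secreted genes of astrocytes were higher in most cases. Of 18 cytoskeleton and identity genes 13 were higher and none lower (median 1.60). Aldoc, an aldolase of astrocytes, was at 165 CPM and 1671 CPM, 10.1-fold higher (9.77 to 10.5), S100b, a calcium-binding protein, at 3.44 CPM and 45.3 CPM, 13.2-fold higher (10.3 to 17.0), and Id4, an inhibitor of helix-loop-helix factors, 22.4-fold higher (17.2 to 29.5). Chrdl1 at 68.9 CPM and 42.4 CPM and Id3 at 47.4 CPM and 33.6 CPM were the 2 below 0. Of 17 secreted genes 10 were higher and 2 lower (median 1.21). Timp3, a protease inhibitor, was at 21.7 CPM and 319 CPM, 14.7-fold higher (13.3 to 16.2), Clu, clusterin, 14.3-fold higher (12.9 to 15.9), and Cst3, cystatin C, 11.2-fold higher (10.7 to 11.6). The IGF-binding proteins Igfbp3 and Igfbp2 were the lower ones, Igfbp3 at 964 CPM and 232 CPM and Igfbp2 at 1979 CPM and 644 CPM. Of 18 listed genes linked to reactive astrocytes only 10 passed the minimum, and these split, with 5 higher and 4 lower. Their median was 1.33, and 0.16 with no minimum level. Lcn2, C3 and Steap4 were among those under the minimum. C4b, complement C4, was at 1.03 CPM and 102 CPM, 98.3-fold higher (64.2 to 159), and S1pr3, a receptor, 35.1-fold higher (23.4 to 55.2), while Cd44, a hyaluronan receptor, was 7.22-fold lower (6.31 to 8.30) and Timp1 11.2-fold lower (5.47 to 26.8). Of 11 complement and acute phase genes in the files 4 were under the minimum, and of the 7 compared 6 were higher. Their median was 1.71, and 0.88 with a pseudocount of 5 CPM. C4b, Cp and Serpina3n are also counted among the reactive genes. C1s1 and Cd59a, at 0 and 0.295 CPM at day 0, passed the minimum only through their day 3 level. C1s1 had 0 counts at day 0 and 44 at day 3, at least 14.8-fold higher against a floor of 3 counts.

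Most surface, matrix and myelin genes of the oligodendrocyte lineage were higher. Of 13 transcription factors of the lineage 4 were higher and 1 lower. Sox10, its defining factor (gene ID 20665, chromosome 15, 79154913 to 79164490), was at 23.7 CPM and 132 CPM, 5.55-fold higher (5.03 to 6.13), and Myrf, the factor of myelin genes, 5.53-fold higher (4.71 to 6.53). The factors already abundant at day 0 did not gain, with Olig1 at 2862 CPM and 2814 CPM and Olig2 at 1546 CPM and 845 CPM. Of 20 surface and matrix genes of precursors 13 were higher and 1 lower (median 1.65). Tnr, tenascin R (gene ID 21960, chromosome 1, 159523729 to 159931729), was at 70.6 CPM and 751 CPM, 10.6-fold higher (10.1 to 11.2), Lims2, an adhesion adaptor, 15.8-fold higher (11.6 to 22.0), and Pdgfra, the PDGF receptor of precursors, 3.07-fold higher (2.84 to 3.32). Cspg4, the NG2 proteoglycan of precursors, was level at 121 CPM and 99.7 CPM, and Mmp15, a membrane protease, was 3.22-fold lower (3.15 to 3.29). Of 19 genes of myelin and maturing cells 17 were higher and none lower (median 1.87). Enpp6, a marker of newly formed oligodendrocytes, was at 0.689 CPM and 25.4 CPM, 36.8-fold higher (21.8 to 67.9), and Fa2h, which hydroxylates myelin lipids, 38.9-fold higher (20.2 to 85.7). Mbp, myelin basic protein, was only 3.01-fold higher (2.75 to 3.29), at 32.3 CPM and 97.1 CPM. Genes of mature myelin were low at both days. Mag, a myelin adhesion protein, was at 3.10 CPM and 11.0 CPM, 3.56-fold higher (2.68 to 4.79), and Mobp, a basic protein of myelin, at 0.295 CPM and 3.18 CPM, 10.8-fold higher (4.69 to 30.5). Mal and Aspa were also called higher, and Mog, Opalin and Ermn were among those under the minimum level.

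Neuronal genes were mixed. Of 19 proteins of young neurons 5 were higher and 3 lower (median 0.35). Tubb3, a neuronal tubulin, was at 11.8 CPM and 71.0 CPM, 6.04-fold higher (5.26 to 6.95). Stmn1, a microtubule destabiliser of dividing and young cells, was at 507 CPM and 84.2 CPM, 6.02-fold lower (5.72 to 6.35). Syt1 and Nefm stayed low, Syt1 at 2.51 CPM and 1.44 CPM and Nefm at 4.13 CPM and 4.08 CPM. Of 22 listed proneural and neuronal factors only 11 passed the minimum, of which 6 were higher and 1 lower. Sox4, a factor of neuronal precursors, was at 211 CPM and 856 CPM, 4.06-fold higher (3.93 to 4.20), Prox1 2.35-fold higher (2.12 to 2.62), and Insm1 2.60-fold lower (2.32 to 2.93). Eomes, Tbr1, Neurod1, Neurod2 and Neurod6, factors of the excitatory cortical lineage, were under the minimum.

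Of 15 listed genes of the GABAergic lineage 8 passed the minimum and 6 of these were higher (median 1.28, and 0.36 with no minimum level). Dlx1, a homeobox factor of interneuron precursors (gene ID 13390, chromosome 2, 71528113 to 71533981), was at 7.48 CPM and 35.2 CPM, 4.71-fold higher (3.95 to 5.65). Dlx2 was at 13.2 CPM and 48.2 CPM, 3.65-fold higher (3.18 to 4.19), and Gad1, a GABA-synthesising enzyme, at 13.1 CPM and 52.5 CPM, 4.00-fold higher (3.49 to 4.59). Sp8, Sp9 and Gad2 were between 2.50-fold and 3.78-fold higher, and Gsx2, a progenitor factor, read 6.25 CPM and 3.23 CPM. Of 10 granin and prohormone genes 7 were higher and 1 lower, with Cpe, carboxypeptidase E, at 399 CPM and 1605 CPM, 4.02-fold higher (3.92 to 4.12).

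Receptors and adhesion molecules of synapses, which neurons and glial precursors both use, were more often higher than lower. Of 18 glutamate receptor genes 8 were higher and 1 lower (median 0.90). Gria2, an AMPA receptor subunit, was at 211 CPM and 842 CPM, 3.99-fold higher (3.86 to 4.13), and Grik3, a kainate receptor subunit, 6.95-fold higher (6.27 to 7.71). Grin1, the obligate NMDA receptor subunit, was at 25.4 CPM and 13.1 CPM, and Grm5 at 291 CPM and 233 CPM. Of 9 GABA receptor genes 5 were higher, led by Gabrb1 at 5.82-fold (4.82 to 7.07) and Gabbr2 at 4.32-fold (3.63 to 5.16). All 17 synaptic adhesion genes were above 0 and 12 were higher, with Nrxn3 at 6.59 CPM and 65.2 CPM, 9.89-fold higher (8.28 to 11.9), and Cadm2 6.86-fold higher (6.42 to 7.34). Of 52 clustered protocadherin genes 39 were higher and 1 lower (median 1.61). Pcdhb9 was at 0.541 CPM and 21.3 CPM, 39.4-fold higher (21.8 to 79.4), and Pcdhac2 2.23-fold lower (1.93 to 2.58). Alpha and gamma protocadherins share their last exons and the beta genes are close copies, so the split of counts among them is uncertain. Of 20 listed potassium and sodium channel genes 10 were higher and 1 lower, with Kcnk2, a leak channel, 7.80-fold higher (7.11 to 8.57). The wider family of potassium channels, picked by symbol, was mixed. It had 19 of 52 compared genes higher and 11 lower (median 0.15). Of 18 semaphorin and plexin genes 6 were higher and 2 lower (median 0.24), and Plxnb3, a plexin of the oligodendrocyte lineage, was 8.96-fold higher (7.72 to 10.4).

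**Figure D4:**
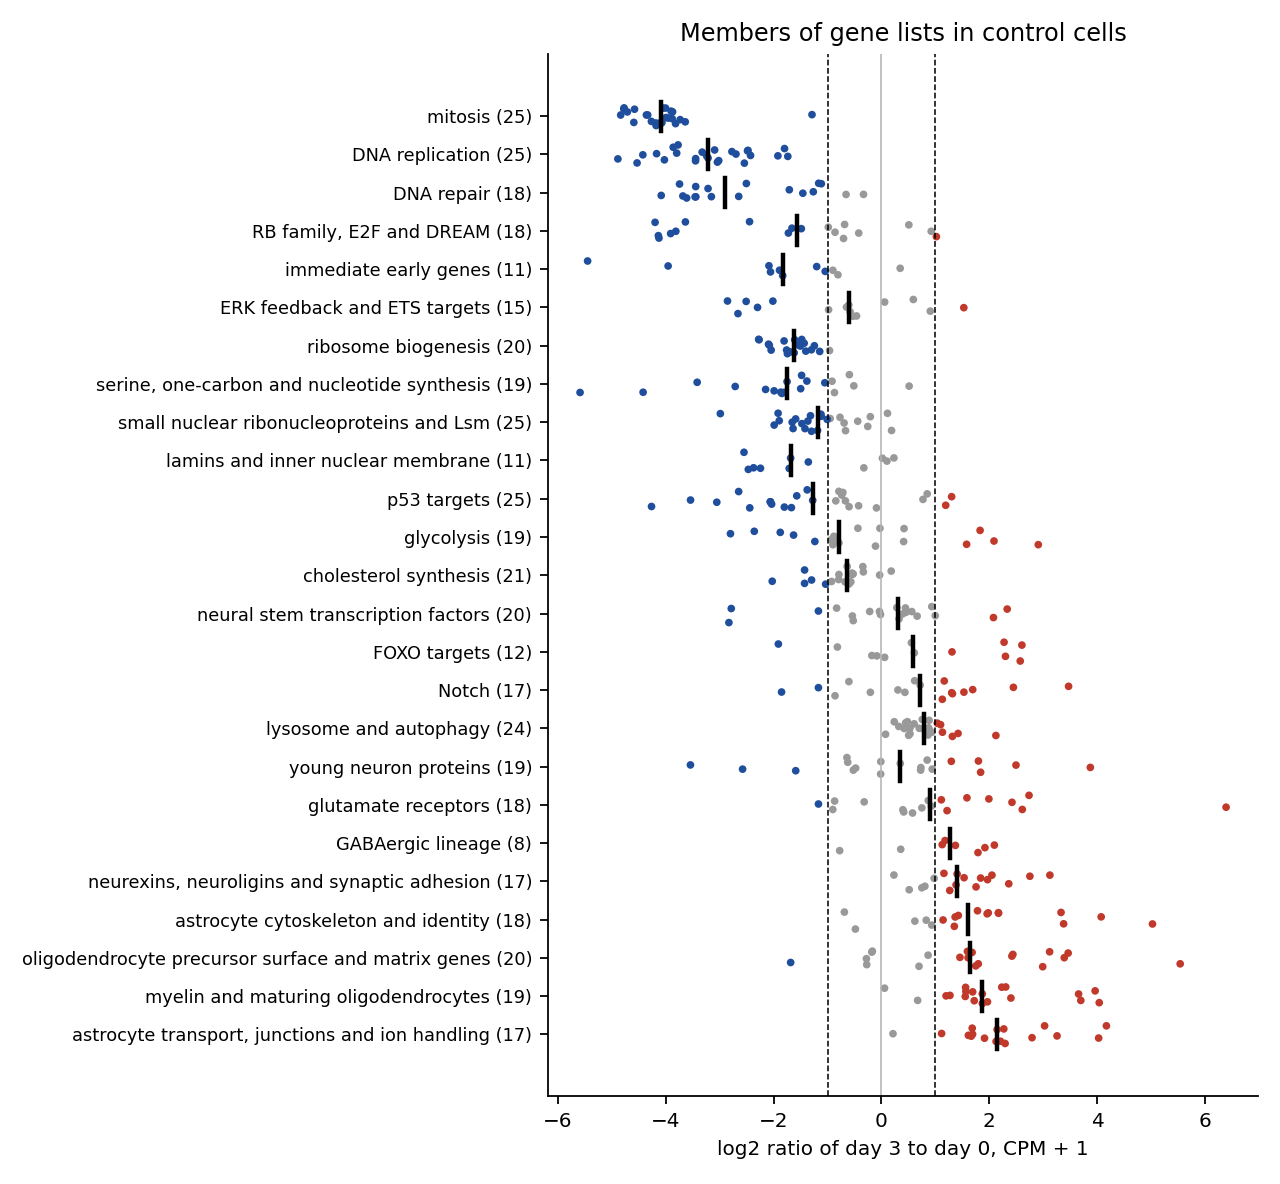
Each point is 1 compared gene, placed by its log2 ratio of day 3 to day 0 (CPM + 1) within 25 gene lists, with the number compared in brackets, black ticks at the list medians and dashed lines at 2-fold. Red points are higher, blue points lower and grey points neither, and the medians run from -4.09 for mitosis to 2.15 for astrocyte transport.

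Signalling pathways between cells had members in both directions. Of 17 Notch genes 8 were higher and 2 lower (median 0.72). Hes5, a Notch target of neural progenitors, was at 9.05 CPM and 110 CPM, 12.2-fold higher (10.5 to 14.3), opposite to its paralog Hes1. Notch3 was at 40.4 CPM and 225 CPM and the ligand Dll1 2.91-fold higher (2.75 to 3.09), while the ligand Jag1 was 3.80-fold lower (3.33 to 4.35). Of 16 BMP and Id genes 6 were higher and 1 lower (median 0.62). Bmp7 was 3.89-fold lower (3.57 to 4.24), while Bmp4, another ligand, had 1 count at day 0 and 124 at day 3, a ratio of 125 (22.1 to 4992). The targets of BMP signalling were not alike. Id4 was at 2.90 CPM and 64.9 CPM and Smad7, an inhibitory Smad, at 1.77 CPM and 5.62 CPM, both higher, whereas Id1 read 21.0 CPM and 18.2 CPM and Id3 was also under 2-fold. The receptor Bmpr1b and the antagonists Nog and Chrd were the other higher members. Of 10 hedgehog genes 3 were higher and 1 lower, with the receptor Ptch1, itself a target of the pathway, at 111 CPM and 298 CPM and the co-receptor Cdon 3.10-fold lower (2.87 to 3.34). Of 20 Wnt genes 5 were higher and 2 lower. Axin2, the common Wnt target, read 64.8 CPM and 37.8 CPM, and Wnt7b was 2.39-fold higher (2.27 to 2.51). Of 12 IGF genes none was higher and 4 were lower, led by Igfbp4 at 5.18-fold (4.70 to 5.72).

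Metabolic lists were split between directions. Of 19 glycolysis genes 5 were lower and 4 higher, but 13 were below 0 and 6 above (median -0.79). The lactate dehydrogenase subunits crossed, with Ldha at 662 CPM and 94.1 CPM, 7.04-fold lower (6.71 to 7.39), and Ldhb at 146 CPM and 521 CPM, 3.57-fold higher (3.43 to 3.72). Hk2, the hexokinase of proliferating cells, was 6.27-fold lower (4.89 to 8.14) while Hk1 was level at 154 CPM and 152 CPM, and the phosphofructokinases likewise split, with Pfkp 3.77-fold lower (3.44 to 4.14) and Pfkm 3.01-fold higher (2.87 to 3.14). Pdk4, a mitochondrial kinase that inhibits pyruvate dehydrogenase, was 13.3-fold higher (8.69 to 21.3). Of 21 cholesterol synthesis and uptake genes 5 were lower and none higher (median -0.64), with Hmgcs1, an early enzyme of the pathway, level at 1297 CPM and 1267 CPM. Of the genes that export sterols, Abca1 was at 25.8 CPM and 353 CPM, 13.7-fold higher, and Abcg1 was 11.2-fold higher (7.76 to 16.8). Abcg4, another of them, stayed under 2-fold at 17.56 CPM and 29.25 CPM. Their list had 13 compared genes, with 5 higher and 2 lower. Of 20 fatty acid genes 4 were higher and none lower, among them Fads2, a desaturase, at 2.47-fold (2.41 to 2.54), and Ppara, a regulator of fatty acid oxidation, at 4.83-fold (3.80 to 6.19). All 24 lysosome and autophagy genes were above 0 and 6 were higher (median 0.78), led by cathepsin F, Ctsf, at 4.55-fold (4.05 to 5.12). The 3 metallothioneins were all higher, Mt1 by 6.18-fold, Mt2 by 14.1-fold (13.4 to 14.8) and Mt3 by 3.07-fold (2.96 to 3.17). Of 15 clock genes 4 were higher and none lower, with Dbp 4.17-fold (3.56 to 4.89), Per3 3.58-fold (3.23 to 3.99) and Cry2 3.15-fold higher (2.84 to 3.50).

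The order of the most abundant messages per length differed between days. At day 0 the highest were Eef1a1, a translation factor, at 4624 FPKM, Ckb, brain creatine kinase, at 3806 FPKM, and Ppia at 2431 FPKM. At day 3 they were Apoe, the main apolipoprotein of glia, at 5763 FPKM, Eef1a1 at 3351 FPKM and Fabp7 at 3276 FPKM, followed by Ckb, Mt1 and Mt2. The largest gains in CPM after Apoe were those of Scd2, a fatty acid desaturase, from 4368 to 10073 CPM, Slc1a3, and Ptprz1, a receptor phosphatase of precursors and astrocytes, from 1963 to 5981 CPM. Ntrk2, the BDNF receptor, went from 495 to 2722 CPM, and Glud1, glutamate dehydrogenase, from 461 to 2383 CPM. The largest losses were those of Eef1a1, Ccnd1 and the tubulins Tuba1b, from 2427 to 203 CPM, and Tubb5, from 2394 to 538 CPM. Tuba1a, a tubulin of postmitotic neurons and glia that differs little in sequence from Tuba1b, was level at 2919 CPM and 3361 CPM. Genes often used to normalise expression were all below 0, 12 of 12, with 3 lower (median -0.64). Hprt, a purine salvage enzyme (gene ID 15452, chromosome X, 52988078 to 53021660), was at 44.2 CPM and 4.88 CPM, 9.06-fold lower (7.35 to 11.3), Ppia 2.95-fold lower (2.89 to 3.01), Gapdh 1.78-fold lower (1.75 to 1.80), and Sdha closest to level at 336 CPM and 314 CPM.

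Several of the steepest ratios belonged to genes outside the lists. Abhd3, a phospholipase, was at 1.28 CPM at day 0 and 117-fold higher (79.9 to 180), Ttyh1, a membrane protein of glia, at 40.8 CPM and 1704 CPM, 41.7-fold higher (39.0 to 44.8), and Selenop, a selenium carrier, at 20.4 CPM and 750 CPM, 36.7-fold higher (33.3 to 40.6). Reln, the secreted protein reelin, was 42.9-fold higher (29.1 to 65.9), and Cldn10 43.4-fold higher (27.6 to 72.5). Secreted signals of vessels and nerves were among the steepest lower ones. Apln, the peptide apelin, was at 278 CPM and 3.13 CPM, 88.7-fold lower (69.2 to 116), Angpt2, angiopoietin 2, at 76.7 CPM and 0.199 CPM, 385-fold lower (150 to 1416), and Dhh, desert hedgehog, at 82.4 CPM and 0.398 CPM, 207-fold lower (105 to 481). Matrix genes were among them, with Col18a1 45.0-fold (35.5 to 58.0) and Fbln2 38.1-fold lower (30.5 to 48.3). Col18a1 is in the symbol family of collagens, which did not follow it. Of 24 compared collagen genes 10 were higher and 3 lower (median 0.24). Anxa3, an annexin, was 117-fold lower (90.1 to 155), and Lgals1, galectin 1, was at 896 CPM and 30.8 CPM.

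Shares of transcripts within a gene could be compared for 6772 genes with several transcript models and at least 200 counts in both control libraries. The share of some model moved by 20 percentage points or more in 1728 of them and by 50 or more in 146. The latter count depended on the minimum, with 366 of 8293 genes at 50 counts and 62 of 4807 at 500 counts. In Dcx, a microtubule protein of young neurons, which had too few counts at day 0 to be among them, 1 model held 70.3% of 185 counts before withdrawal, with an exact Clopper-Pearson interval of 63.1 to 76.8. After withdrawal it held 10.1% of 2962 counts (9.03 to 11.2). In Ndrg2, a glial hydrolase relative, 1 model went from 1.76% (1.05 to 2.77) to 67.9% (67.3 to 68.4). Both genes were picked after their values were seen. The 8 largest shifts, in Gm46911, Mlh3, Zfp217, Map4k2, Plekhg5, Npcd, Tet2 and Syt14, put nearly all counts on 1 model at day 0 and none on it at day 3. Such shares are estimates that divide reads among overlapping models, so their error is larger than the counting interval.

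The same withdrawal in iKO cells shares no library with the control pair and can be set beside it. Over all 12821 compared genes, which were kept by their level in the control libraries alone, 1393 were higher and 1454 lower in iKO. These counts are the iKO background for the overlaps that follow. Of those higher in control cells 1029 were also higher in iKO, which is 54.3% of the control list and 73.9% of the iKO list, and of those lower in control cells 1167 were also lower, 59.7% and 80.3%. The log2 ratios of control and iKO cells had a Pearson r of 0.844 and a Spearman rho of 0.806 over the compared genes, which share libraries and are no replicates of each other. Medians in control and iKO cells were -4.09 and -3.63 for mitosis and 2.15 and 2.16 for astrocyte transport. Medians lay further apart for precursor surface genes, 1.65 and -0.36, myelin genes, 1.87 and 0.59, granins, 1.85 and -0.15, the GABAergic lineage, 1.28 and -1.02, and p53 targets, -1.28 and -0.34. Whether these differences exceed the spread between cultures was not tested, since each group is 1 library. Opposite directions were rare. Of the 1894 genes higher in control cells 18 were 2-fold or more lower in iKO cells, and 1 gene went the reverse way. Among the 18 was Pdgfra, at 41.8 and 128 CPM in control cells and 15.8 and 5.25 CPM in iKO cells. Dll3 was another, at 87.9 and 198 CPM against 62.8 and 29.9 CPM. Both are named after their values were seen.

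**Figure D5:**
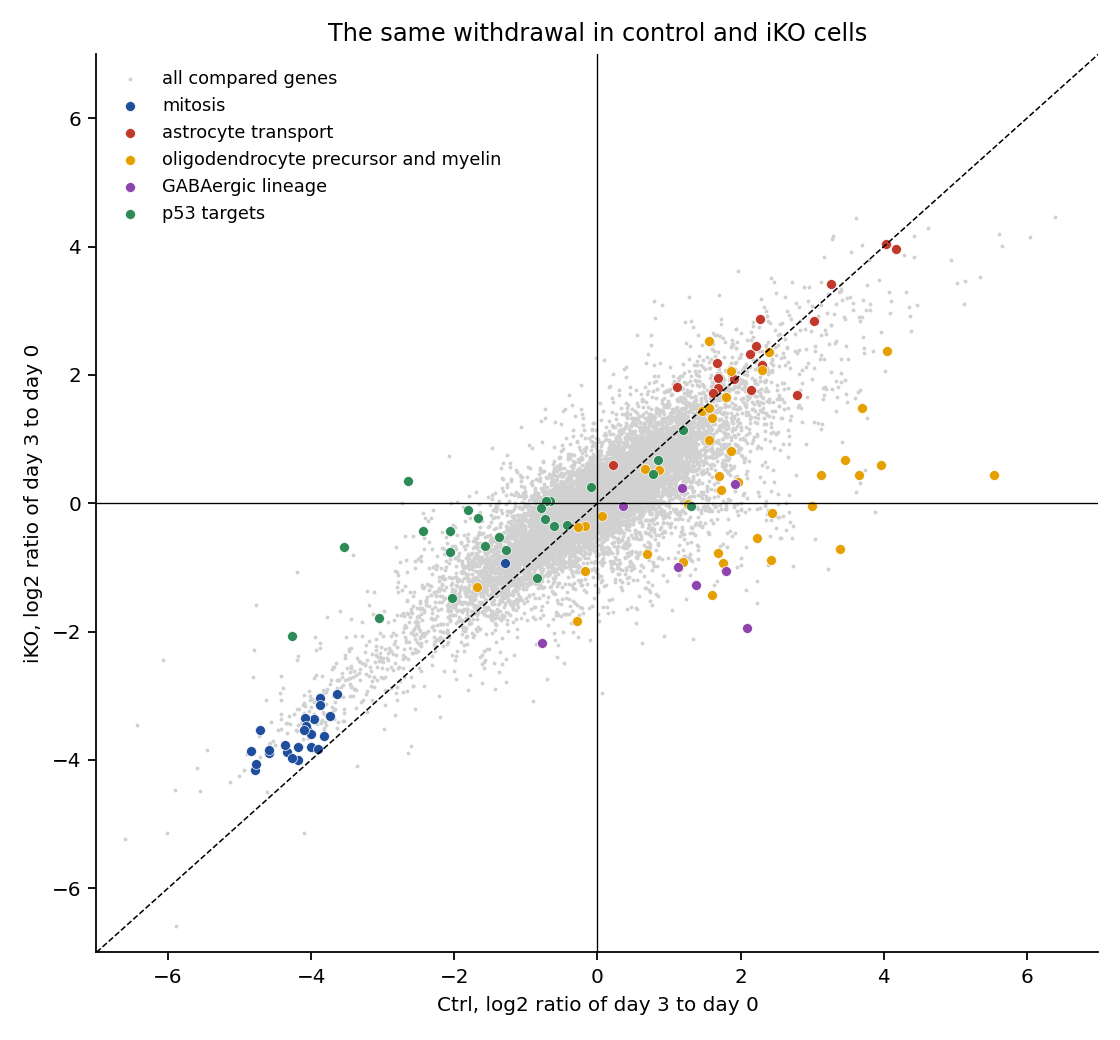
Each point is a compared gene, with the log2 ratio of day 3 to day 0 in control cells on the x axis and in iKO cells on the y axis, and a dashed line of equality. Mitosis and astrocyte transport genes lie near the line, and many oligodendrocyte and GABAergic genes lie below it.

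Markers of microglia, vessels and meninges were scarce at both days. Of 13 microglial symbols in the files 4 passed the minimum, Aif1, C1qa and C1qb had 0 counts in both control libraries, and the summed level of the list, 154 CPM and 222 CPM, was mostly Sall1, which neural progenitors also express. The 10 endothelial markers summed to 3.25 CPM and 4.18 CPM, with Cldn5 and Ly6c1 at 0. The 13 fibroblast, mural and meningeal markers summed to 14.9 CPM and 30.2 CPM, with Col1a1 at 2.56 CPM and 0.696 CPM and Pdgfrb, a mural receptor, 15.8-fold higher (8.35 to 33.5) at 0.492 CPM and 7.76 CPM. Of the Schwann and neural crest markers 4 of 6 compared genes were lower and 2 higher, among the latter Sox10, which oligodendrocytes share. Ependymal markers had 3 of 7 higher and 1 lower, with Foxj1, a factor of ciliated cells, at 50.9 CPM and 68.0 CPM.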

How the data were processed

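Bulk RNA-seq of 4 libraries, 1 per group, was used. The deposited values are estimated (expected) counts per transcript and FPKM, per the file headers. The submitters' processing notes name HISAT, Bowtie2, StringTie and mm10 without versions or roles, and the counting tool and the annotation release are not stated in what was used here. Expected counts as deposited were summed per gene and rounded to whole numbers, and FPKM as deposited was summed per gene.

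Libraries were scaled by TMM (edgeR 4.0.16, R 4.3.3) over all 4. Ratios used a pseudocount of 1 CPM, and genes needed a mean of 1 CPM in the control libraries. Intervals are exact conditional Clopper-Pearson 95% intervals of the count ratio (scipy 1.17.1). With 0 counts in a library, a floor of 3 counts gave a bound. The script was checked on simulated counts. Alternatives were library totals, DESeq2 1.42.0 size factors, TMM without ribosomal protein and histone genes, FPKM, pseudocounts of 0.1 and 5 CPM, other minimums and a 4-fold threshold. RefSeq promoters (GRCm38.p6) were matched by gene ID.

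The 63 gene lists, the 13 symbol families and the genes named were chosen with earlier results of these data known. The rule for names took, in each list, the 4 members with the largest absolute log2 ratio, the member with the highest FPKM and members against the majority, and all members of lists of up to 9. It also took the 15 largest ratios each way, the 12 largest gains and losses in CPM, the 10 highest FPKM per library and the 8 largest transcript shifts. Members named beside them to show the spread were chosen after their values were seen. Some results are not reported here because the items they concern are withheld.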

Additional observations from a re-analysis of the deposited data

Results flagged for a closer look

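In each result below, control cells were higher at day 3 by 2-fold or more and iKO cells lower by 2-fold or more, with 1 library a group, so the difference between genotypes was not tested. The log2 ratio of Dlx1 was 2.10 in control cells and -1.95 in iKO cells. Its neighbour and paralog Dlx2 had ratios of 1.79 and -1.05. Sp9, a zinc finger factor of interneuron precursors, had ratios of 1.37 and -1.27, and Scg2, secretogranin 2, had 3.22 and -1.02. The median of the GABAergic lineage list, which holds Dlx1, Dlx2 and Sp9, was 1.28 in control cells and -1.02 in iKO cells. Levels of this list differed at day 0 too. Its sum was 93.8 CPM at day 0 and 220 CPM at day 3 in control cells, and 145 CPM and 114 CPM in iKO cells. Sp9 and Scg2 were near the minimum level in control cells at day 0, at 1.33 CPM and 1.03 CPM.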

How the results depend on the processing

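No paired analysis was possible because each group is 1 library and no test was made. The counts of genes higher and lower, 1894 and 1955, stayed within 1.5 times under 8 of the 10 other settings tried; the exceptions were a pseudocount of 5 CPM, with 1213 higher, and the 4-fold threshold, with 457 and 555. TMM on the 2 control libraries alone, chosen after seeing the data, gave 1887 and 1954. Genes with a transcript share shifted by 50 points or more numbered 366 of 8293 at a minimum of 50 counts and 62 of 4807 at 500 counts, against 146 of 6772 at 200. Of 386 list medians and named genes at 2-fold or more, 0 changed sign. Of 30 such medians 8 went under 2-fold in some setting, among them the GABAergic lineage (0.36) and proneural factors (0.12) with no minimum and CDK inhibitors (-0.84) with a pseudocount of 5 CPM. Of 356 such genes 51 did, 45 of them with a pseudocount of 5 CPM. The cause was not tested. Genes near the 1 CPM minimum have wide counting intervals, and the spread between cultures is unknown.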
